A study of Mus musculus with 6 samples.

Results

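Sarcomere and Z-disc genes were examined in mouse hearts after doxorubicin (Dox), ginsenoside Rh2 or both. The set was a list of 39 gene symbols for filament, M-band, Z-disc, costamere and associated proteins, and all 39 were found among the 45777 genes of the deposited table. Each averaged 10 counts or more across the 6 libraries, the minimum for testing, which 18328 genes met. Dox is an anthracycline chemotherapy drug known for its toxicity to the heart, and Rh2 is a saponin of ginseng. The study asked whether Rh2 alters the cardiac transcriptome of Dox-treated, tumour-bearing animals.

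Hearts came from female BALB/c nude mice (CAnN.Cg-Foxn1nu/Crl), which lack a thymus and mature T cells. The labels and the study's methods give their age as 6 weeks, and the study started treatment at 7 weeks of age. The hearts were therefore older than 6 weeks when taken. All mice, Control included, carried a subcutaneous xenograft of MDA-MB-231, a human breast cancer cell line. Treatment began on day 7 after the cells were injected and lasted 3 weeks. There were 6 groups: Control, which received vehicle, Rh2 alone at 20 mg/kg (Rh2-20 mg/kg) or at 30 mg/kg (Rh2-30 mg/kg), Dox alone at 2 mg/kg, and Dox with either Rh2 dose (Rh2-20 mg/kg + Dox, and likewise Rh2-30 mg/kg + Dox). Where 6 values follow each other below, they stand in that order. Dox in saline was injected every other day to a cumulative 22 mg/kg, and Rh2 in PBS with Tween 80 was injected daily. Each group was 1 library made from the pooled hearts of 5 mice, so the spread between mice was not measured and no group had a replicate.

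The sarcomere is the contractile unit of striated muscle. Thick filaments of myosin pull on thin filaments of actin when calcium binds troponin and shifts tropomyosin. Titin spans the sarcomere from the Z-disc, where thin filaments are anchored by alpha-actinin, to the M-band, where thick filaments are cross-linked. Costameres and intercalated discs couple this lattice to the membrane and to neighbouring cells. In adult mouse ventricle the alpha isoform of myosin heavy chain (Myh6) and cardiac actin (Actc1) predominate, while beta-myosin (Myh7) and skeletal actin (Acta1) belong to the fetal programme that stress can bring back.

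The libraries held 86164411 to 90621002 counts each, and the 39 genes took 10.6% to 13% of them. Titin alone took 7.17% to 8.68%. Heart muscle markers (7 genes, among them Ryr2, Pln and the members Myh6 and Myl2) summed to 21815 to 29332 CPM (counts scaled to a common library size after TMM normalization), against 3.25 to 9.8 CPM for 9 skeletal muscle markers, so the labelled tissue carried heart muscle transcripts. Atrial markers did not stay level. Myl7, the atrial regulatory light chain, had 56 counts in Control, 1187 at 20 mg/kg of Rh2, 52896 at 30 mg/kg of Rh2, 9134 in Dox alone, 10613 in Dox with 20 mg/kg, and 19 in Dox with 30 mg/kg. The 4 atrial markers Myl7, Myl4, Sln and Nppa together summed to 45.7, 62, 1662, 379, 403 and 75.3 CPM in that order, and Sln was at 0 in Rh2-30 mg/kg + Dox. Nppa alone gave 43.3 of the 45.7 CPM in Control and 73.8 of the 75.3 CPM in Rh2-30 mg/kg + Dox. The sum was thus lowest in Control, whereas Myl7, Myl4 and Sln were each lowest in Rh2-30 mg/kg + Dox. How much atrial tissue each pool held is not given in the sources used here. Summed fibroblast markers (6 genes) were likewise highest in Rh2-30 mg/kg (2430 CPM) and lowest in Rh2-30 mg/kg + Dox (975 CPM), and macrophage markers (5 genes) ran from 510 to 234 CPM in the same libraries. Of the fibroblast markers, Dcn and Pdgfra did not follow their sum, being highest in Rh2-20 mg/kg + Dox and lowest in Control. In bulk tissue, fewer muscle cells and less transcript per muscle cell cannot be told apart.

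Per unit length, in FPKM (fragments scaled to transcript length and library depth), the members covered a wide range of levels. Myh6 was the most abundant at 1658 ± 143 (SD over the 6 libraries), followed by the ventricular light chain Myl2 at 1466 ± 199 and the troponin T gene Tnnt2 at 973 ± 120. The first 2 of these lay within their spread of each other. Troponin C (Tnnc1, 789 ± 87.0), titin (Ttn, 667 ± 69.3), tropomyosin (Tpm1, 637 ± 50.4) and troponin I (Tnni3, 525 ± 45.9) followed. Cardiac actin stood at 451 ± 67.8 and skeletal actin at 192 ± 49.8. Of the lowest genes, Myot had 8.76 ± 1.74, Synpo2l 8.43 ± 1.66 and Ankrd2 0.211 ± 0.0884 FPKM. Ankrd2, a titin-binding ankyrin protein chiefly of slow skeletal muscle, had 17 to 49 counts per library, so its ratios carry wide counting error.

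**Figure D1:**
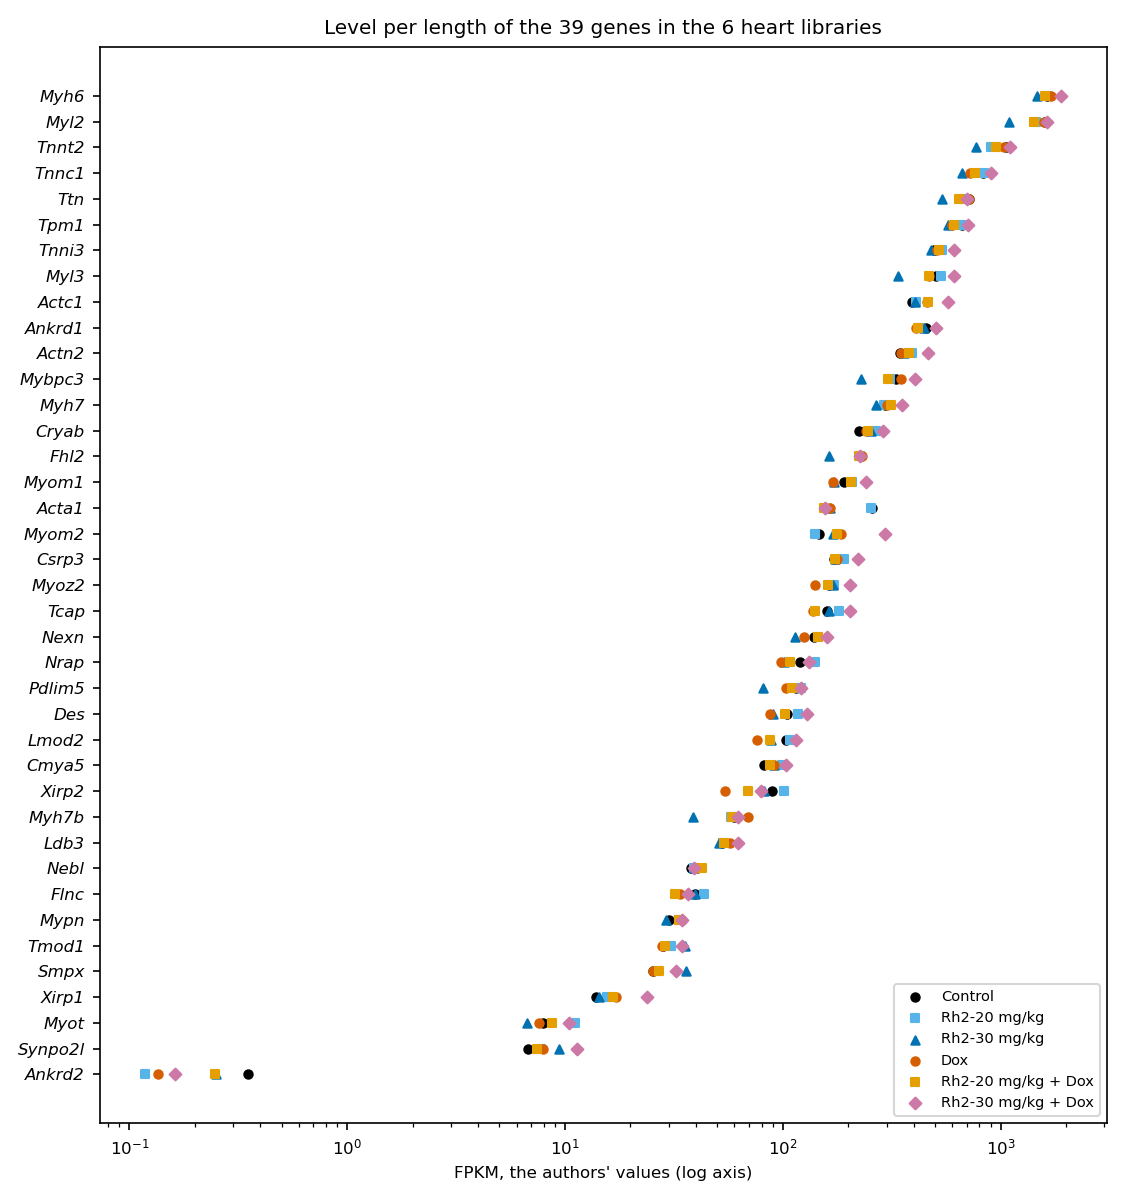
Level per length of each of the 39 genes (FPKM, log axis) in the 6 libraries, 1 point per library, ordered by mean. Myh6 lies at the top with a mean of 1658 FPKM, Ankrd2 is far below the rest with 0.211 FPKM, and the Rh2-30 mg/kg library is leftmost for 17 genes and the Rh2-30 mg/kg + Dox library rightmost for 25.

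The 3 cardiac myosin heavy chain genes each carry a microRNA in their introns, and these sequences are shown because the host genes are the head of the thick filament group. They were read from RefSeq (GRCm38.p6), with the seed (bases 2 to 8) in capitals. The microRNAs themselves were not measured by this assay. The miR-208 pair shares the seed UAAGACG and the microRNA of Myh7b has UAAGACU.
mmu-miR-208a-3p, in Myh6, chr14:54949072-54949093, minus strand: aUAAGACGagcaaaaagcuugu
mmu-miR-208b-3p, in Myh7, chr14:54975710-54975731, minus strand: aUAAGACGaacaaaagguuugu
mmu-miR-499-5p, in Myh7b, chr2:155622893-155622913, plus strand: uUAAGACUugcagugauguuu

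Among thick filament genes the lowest library was always Rh2-30 mg/kg, and the highest was Rh2-30 mg/kg + Dox for all but Myh7b. Myh6 (mm10 chr14:54941921-54968017), the motor of adult mouse heart, had 13338 CPM in Control, 12584 at 20 mg/kg of Rh2, 10772 at 30 mg/kg of Rh2, 13645 in Dox alone, 12369 in Dox with 20 mg/kg, and 15515 in Dox with 30 mg/kg. Its neighbour Myh7 (chr14:54970684-54994626), the slow fetal isoform, had 2419, 2263, 1969, 2428, 2449 and 2959 CPM in the same order. For both, Rh2-30 mg/kg was lowest and Rh2-30 mg/kg + Dox highest. The Myh7 to Myh6 ratio of FPKM values stayed between 0.177 (Dox) and 0.197 (Rh2-20 mg/kg + Dox). Its mean was 0.187 ± 0.0098 (SD, n = 3) with Dox and 0.180 ± 0.00162 (SD, n = 3) without, and a two-sided exact permutation test gave p = 0.4, where 0.1 is the smallest value 3 against 3 libraries allow. About 11.3% of the read-length stretches of the Myh6 transcript also occur in Myh7, so a part of their reads could have been assigned to either.

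Myh7b, an ancient slow myosin gene, had 508 CPM in Control, 464 at 20 mg/kg of Rh2, 298 at 30 mg/kg of Rh2, 579 in Dox alone, 472 in Dox with 20 mg/kg, and 538 in Dox with 30 mg/kg. Myl2 had 1450, 1255, 896, 1409, 1220 and 1488 CPM in that order. The essential light chain gene Myl3 had 617, 619, 375, 564, 545 and 752 CPM. In each of these Rh2-30 mg/kg lay well under the other 5 libraries. Mybpc3, which encodes cardiac myosin-binding protein C, a regulator of cross-bridges, had 1853, 1657, 1157, 1933, 1630 and 2287 CPM, the same low and high libraries as Myl3. Titin, the spring and ruler of the sarcomere (Ttn, chr2:76703980-76982557), had 90345, 81170, 66336, 88438, 76897 and 89131 CPM. It was lowest in Rh2-30 mg/kg, while Control, Dox and Rh2-30 mg/kg + Dox lay close together.

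On the thin filament, the troponin genes and Tpm1 had the same extreme libraries as Myh6, and the actin genes differed from each other. Lmod2 and Tmod1 were lowest in other libraries. Tnnt2, which ties troponin to tropomyosin, had 1738 CPM in Control, 1420 at 20 mg/kg of Rh2, 1148 at 30 mg/kg of Rh2, 1688 in Dox alone, 1495 in Dox with 20 mg/kg, and 1827 in Dox with 30 mg/kg. The inhibitory subunit Tnni3 had 614, 633, 535, 621, 609 and 759 CPM in that order. The calcium sensor Tnnc1 had 811, 774, 585, 696, 708 and 888 CPM. In all 3 troponin genes the extremes were again the libraries with 30 mg/kg Rh2. Tpm1 had 1108, 1057, 873, 990, 971 and 1197 CPM, with the same extremes. Lmod2 ranged from 199 CPM in Dox to 309 CPM in Rh2-30 mg/kg + Dox. Tmod1 ranged from 105 CPM in Rh2-20 mg/kg + Dox to 133 CPM in Rh2-30 mg/kg + Dox. For Tmod1, Rh2-30 mg/kg lay above Control (123 against 107 CPM).

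Cardiac actin was higher in every Dox library than in any library without Dox, and skeletal actin was not. Actc1 (chr2:114047282-114052875) had 774 CPM in Control, 763 at 20 mg/kg of Rh2, 718 at 30 mg/kg of Rh2, 896 in Dox alone, 871 in Dox with 20 mg/kg, and 1138 in Dox with 30 mg/kg. Acta1 (chr8:123891758-123894775), the skeletal isoform, had 514, 485, 297, 325, 294 and 316 CPM in that order. Control and Rh2-20 mg/kg were the high libraries for Acta1, and Rh2-30 mg/kg without Dox lay among the 3 Dox libraries. The Acta1 to Actc1 ratio of FPKM values was 0.655 in Control, 0.627 at 20 mg/kg of Rh2, 0.408 at 30 mg/kg of Rh2, 0.357 in Dox alone, 0.333 in Dox with 20 mg/kg, and 0.274 in Dox with 30 mg/kg. All 3 Dox libraries were below all 3 without Dox. The means were 0.321 ± 0.0428 (SD, n = 3) with Dox and 0.563 ± 0.135 (SD, n = 3) without, and the two-sided exact permutation test gave p = 0.1, the smallest it can give here. No read-length stretch of either actin transcript occurs in the other.

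**Figure D2:**
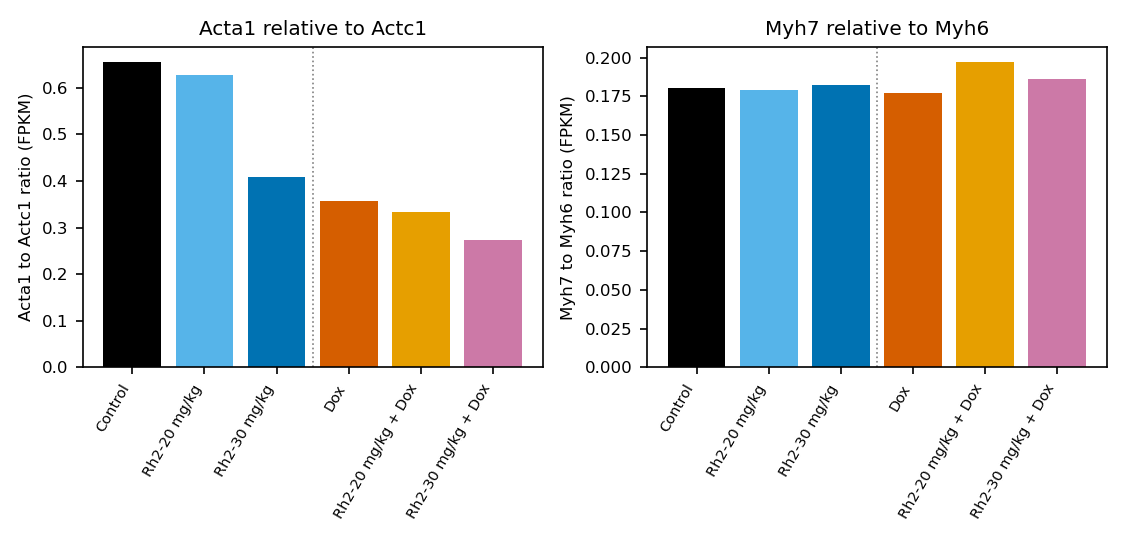
Ratio of FPKM values in each library, with Acta1 to Actc1 on the left and Myh7 to Myh6 on the right (bars from 0, 1 library each, the dotted line parting libraries without Dox from those with Dox). The actin ratio is 0.274 to 0.357 in the Dox libraries and 0.408 to 0.655 in the others, while the myosin ratio stays between 0.177 and 0.197.

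The promoters of both actin genes are shown because the ratio of this pair parted the Dox libraries from the others and both share a regulatory element. Each is the 250 bases before the RefSeq transcription start (GRCm38.p6), read on the gene's strand, with the CArG box in capitals. The CArG box (searched as exactly CCWWWWWWGG, where W is A or T) is the known binding site of serum response factor (Srf), a regulator of muscle genes. It lies 63 bases before the start in Acta1 and 37 bases before it in Actc1.
Acta1, chr8:123894776-123895025, minus strand: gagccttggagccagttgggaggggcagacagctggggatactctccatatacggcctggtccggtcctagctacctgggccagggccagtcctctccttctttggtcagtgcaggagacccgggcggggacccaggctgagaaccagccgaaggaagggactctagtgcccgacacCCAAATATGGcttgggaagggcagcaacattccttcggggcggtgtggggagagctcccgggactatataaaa
Actc1, chr2:114052876-114053125, minus strand: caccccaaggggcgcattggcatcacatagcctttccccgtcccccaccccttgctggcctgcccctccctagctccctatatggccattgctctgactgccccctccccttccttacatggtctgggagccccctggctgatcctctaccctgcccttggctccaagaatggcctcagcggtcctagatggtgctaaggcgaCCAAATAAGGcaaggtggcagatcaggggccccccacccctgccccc

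Both strands of such windows were searched for 4 motifs, in 33 of the 39 members and 27025 genes in all, and a gene with several start sites counted once if any of its windows held the motif. A CArG box was found in 7 members (21.2%; Myl3, Actc1, Acta1, Myom1, Ldb3, Nebl and Fhl2) against 1.62% of all genes. The M-CAT letters CATTCC, bound by TEAD factors, were in 12 members (36.4%) against 14.4%. The GATA letters GATAA were in 13 members (39.4%) against 25.5%, and the TATA letters TATAAA were in 6 (18.2%) against 14.3%. These are matches of letters and not mapped binding sites. Srf itself had 1707 counts in Control, 1902 at 20 mg/kg of Rh2, 1936 at 30 mg/kg of Rh2, 1418 in Dox alone, 1490 in Dox with 20 mg/kg, and 1647 in Dox with 30 mg/kg. After normalization all 3 Dox libraries were below the others for Srf. The difference was -0.25 ± 0.09 on the log2 scale (SE), with an adjusted p of 0.435 by edgeR's quasi-likelihood test. Whether Srf had a part in the actin values was not tested.

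At the M-band, Myom2 had the highest ratio to Control of all 39 members, in Rh2-30 mg/kg + Dox. Myom2 (chr8:15057653-15133420), a myomesin that cross-links thick filaments, had 983 CPM in Control, 893 at 20 mg/kg of Rh2, 1035 at 30 mg/kg of Rh2, 1214 in Dox alone, 1126 in Dox with 20 mg/kg, and 1980 in Dox with 30 mg/kg. Every Dox library exceeded every library without Dox, and Rh2-30 mg/kg + Dox stood well above the other 2. Its relative Myom1 ranged from 1125 CPM (Rh2-30 mg/kg) to 1748 CPM (Rh2-30 mg/kg + Dox), and its groups overlapped.

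The 14 Z-disc genes mostly kept within narrow ranges. The alpha-actinin gene Actn2 ranged from 1308 to 1879 CPM, the titin cap gene Tcap from 170 to 261, the calcineurin-binding Myoz2 from 218 to 320 and the LIM protein gene Csrp3 from 190 to 269. In each of these the top library was Rh2-30 mg/kg + Dox. Myot, the actin-bundling myotilin gene, was the most variable of the Z-disc genes, with 22.8 CPM in Control, 31.2 at 20 mg/kg of Rh2, 17.3 at 30 mg/kg of Rh2, 21.8 in Dox alone, 24.2 in Dox with 20 mg/kg, and 30.3 in Dox with 30 mg/kg. Ldb3 (217 to 312 CPM), Nebl (508 to 628), Mypn (186 to 245), Nexn (448 to 700), Pdlim5 (296 to 416) and Fhl2 (283 to 438) were all lowest in Rh2-30 mg/kg. For Nebl this depended on the scaling, as it was lowest in Rh2-20 mg/kg by total count and in Control by FPKM. Flnc, which encodes an actin cross-linker, ranged from 368 CPM in Rh2-20 mg/kg + Dox to 503 in Rh2-20 mg/kg. The desmin-associated Cmya5 (1312 to 1660 CPM) and Synpo2l (40.2 to 66.3) were lowest in Control.

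Stress-responsive and costamere genes differed among themselves. Ankrd1, a titin-binding transcriptional cofactor known to rise in strained hearts, ranged only from 950 to 1208 CPM. Ankrd2 had 49 counts in Control, 17 at 20 mg/kg of Rh2, 36 at 30 mg/kg of Rh2, 19 in Dox alone, 33 in Dox with 20 mg/kg, and 24 in Dox with 30 mg/kg. Control was highest for Ankrd2, and the treated libraries followed no order by Dox or by Rh2 dose. Xirp1 and Xirp2 encode Xin repeat proteins of the intercalated disc that bind actin. Xirp1 had 113, 120, 105, 138, 128 and 194 CPM in the order given above, so its Dox libraries were the 3 highest. Xirp2 had 1436, 1561, 1192, 865, 1064 and 1283 CPM in that order, with Dox lowest. Desmin (Des) ranged from 339 to 540 CPM and its chaperone Cryab from 287 to 380. Nrap, of nascent myofibrils, ranged from 668 to 976 CPM and the small costamere protein gene Smpx from 36.6 to 48.

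**Figure D3:**
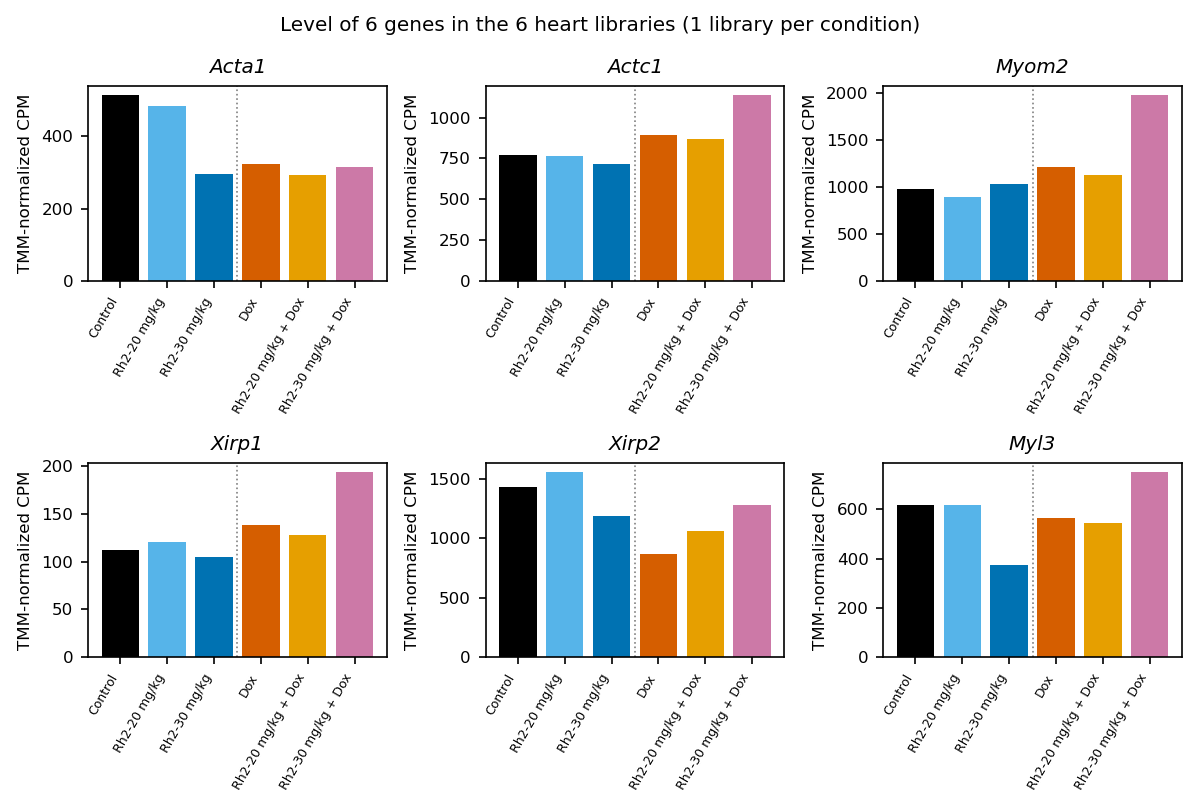
TMM-normalized CPM of Acta1, Actc1, Myom2, Xirp1, Xirp2 and Myl3 in each of the 6 libraries (bars from 0, 1 library each, the dotted line parting libraries without Dox from those with Dox). Actc1, Myom2 and Xirp1 are higher in each Dox library than in any other, Acta1 shows a high pair of 514 and 485 CPM and 4 low values of 294 to 325 CPM, and Myl3 is lowest at 375 CPM in Rh2-30 mg/kg.

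The replicated contrast set the 3 libraries with Dox against the 3 without. By edgeR's quasi-likelihood test, 0 of the 39 members passed an adjusted p of 0.05, where 0.0273% of all tested genes did, and DESeq2's Wald test and limma on log2(FPKM + 1) also called 0. At an unadjusted p under 0.05 there were 3 members, all higher with Dox, against 10.1% of all genes. Actc1 was higher by 0.37 ± 0.13 on the log2 scale (SE; unadjusted p = 0.0233, edgeR adjusted p = 0.415). Xirp1 was higher by 0.45 ± 0.16 (edgeR adjusted p = 0.43) and Myom2 by 0.57 ± 0.22 (edgeR adjusted p = 0.453). None of these 3 thus passed the adjusted threshold. By direction, 30 members were higher and 9 lower with Dox, with a median log2 difference of 0.14 against -0.01 over all tested genes. This split came from the 30 mg/kg pair, in which 38 members were higher and 1 lower with Dox, whereas in Dox against Control 14 were higher and 25 lower, and at 20 mg/kg of Rh2 9 were higher and 30 lower. Without Rh2-30 mg/kg + Dox the split was 20 to 19, and without both 30 mg/kg libraries it was 14 to 25, with a median of -0.05. In the contrast of all 6 libraries, all 6 thick filament genes, titin and both M-band genes were on the higher side, as were 12 of the 14 Z-disc genes. On the lower side, Acta1 differed by -0.47 ± 0.20 (edgeR adjusted p = 0.495), from 432 ± 118 CPM (SD, n = 3) without Dox to 311 ± 15.9 CPM (SD, n = 3) with it. Xirp2 differed by -0.38 ± 0.17 (edgeR adjusted p = 0.519), from 1396 ± 188 to 1071 ± 209 CPM. Since each library is a pool treated in its own way, these p-values measure the spread between unlike libraries.

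Several of these values rested on single libraries. Without Rh2-30 mg/kg + Dox the log2 difference was 0.23 for Actc1, 0.27 for Myom2 and 0.24 for Xirp1, and the 3 members under an unadjusted 0.05 were then Tcap, Flnc and Xirp2. Without Rh2-20 mg/kg only Xirp1 remained under 0.05, without Control there were 2 (Actc1 and Tnnt2), and without Rh2-30 mg/kg there were 3 (Acta1, Myom2 and Xirp2). Without Dox alone the Xirp2 difference was -0.25. With both 30 mg/kg libraries left out, a choice made after seeing the data, 8 members were under 0.05 (12.3% of all genes), 0 passed the adjusted threshold (0.562%) and Acta1 differed by -0.69 ± 0.10 (edgeR adjusted p = 0.0511). Across all alternatives the adjusted p of Acta1 lay between 0.0511 and 0.746. With the Myl7 level as a term, also added after seeing the data, 10 members were under 0.05 (13.2% of genes) and 0 passed the adjusted threshold (0.366%). With Rh2 dose as a block, 1 was under 0.05 (Myom2), and with DESeq2 5 were. For these fits and those with single libraries left out, the share over all genes was not taken. Their counts therefore have no background to be read against.

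Counted without a model, the 3 Dox libraries lay wholly above the 3 others for 4 members, Myh7, Actc1, Myom2 and Xirp1, which is 4 of 39 where 7.85% of all genes did so. For 0 members did they lie wholly below, against 9.16% of all genes. Atrial marker sums overlapped between these arms (75.3 to 403 CPM with Dox, 45.7 to 1662 without), and their part in these differences was not tested beyond the Myl7 term.

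Each treated library was then set against Control, with 1 library on each side and hence no test. Counting error alone, as an exact 95% interval, was narrow for all but Ankrd2, and a called gene here means a ratio of at least 2. Counting intervals take no account of differences between mice. The 5 comparisons below share the Control library, so their values are not independent.

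In Dox alone the median log2 ratio of the members to Control was -0.04 with 14 higher and 25 lower, against -0.0046 over all genes, and on log2(FPKM + 1) 18 were higher and 21 lower. Only Ankrd2 passed 2-fold (log2 ratio -1.36, interval -2.23 to -0.59), where 9.02% of genes did. At 1.5-fold, Acta1 (-0.66, interval -0.68 to -0.64), Xirp2 (-0.73, interval -0.74 to -0.72) and Ankrd2 were lower, which is 3 of 39 against 8.58% of genes, and 0 were higher against 11%. The leiomodin gene Lmod2, which lengthens thin filaments, had a ratio of -0.46 and Myom2 one of 0.30. The atrial sum was 379 CPM in Dox against 45.7 CPM in Control, and the red cell sum 6848 against 2256 CPM. Their part in the lower values was not tested.

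In Rh2-20 mg/kg, 18 members were higher and 21 lower with a median of -0.01, against 0.00082 over all genes. Scaled by total count 24 were higher and 15 lower with a median of 0.06, against 0.07 over all genes. Ankrd2 (-1.61, interval -2.53 to -0.82) was the single gene past 2-fold (6.15% of all genes) and past 1.5-fold on the lower side (6.62%), with 0 higher (6.95%). The highest ratio was 0.45 for Myot. Tnnt2 had a ratio of -0.29 and Ttn one of -0.15.

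In Rh2-30 mg/kg, 33 members were lower than Control and 6 higher, with a median of -0.30 against 0.03 over all genes. This library was the lowest of the 6 for 25 of the 39 members by TMM-normalized CPM and for 17 by total count or FPKM. None passed 2-fold (10.1% of all genes did), while 8 passed 1.5-fold on the lower side, against 5.67% of genes, and 0 on the higher side against 16.1%. These 8 were Acta1 (-0.79), Myh7b (-0.77), Myl3 (-0.72), Myl2 (-0.69), Mybpc3 (-0.68), Fhl2 (-0.63), Ankrd2 (-0.62) and Tnnt2 (-0.60). Smpx was highest at 0.36. The count past 1.5-fold and the direction of some members leaned on the scaling, while most members stayed lower. By total count 26 members were lower and 13 higher, the median of the members was -0.13 while that of all genes was 0.20, and only Acta1 (-0.62) and Myh7b (-0.60) passed 1.5-fold, against 3.25% of genes. On log2(FPKM + 1) the same genes, Acta1 (-0.64) and Myh7b (-0.62), were the 2 that passed, against 0.829% of genes. By total count Actc1, Actn2, Tcap, Myoz2, Csrp3, Flnc and Xirp1 changed sign. This library also had the highest sum of atrial, fibroblast and macrophage markers given above, and of white fat markers (52 CPM against 0.115 to 10.5 in the others). The sum of the brown fat markers Ucp1, Cidea and Ppargc1b was highest here too (162 CPM against 83.7 to 99.2). Ucp1 had 6442 counts here and 0 to 12 in the others, and Cidea was also highest, whereas Ppargc1b was lowest here. The skeletal muscle sum was highest here as well (9.8 CPM), with 6.11 CPM of it from Atp2a1. What part these had in the lower values was not tested.

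In Rh2-20 mg/kg + Dox, 27 members were lower and 12 higher with a median of -0.10, against 0.0056 over all genes. By total count 21 were lower and 18 higher with a median of -0.01, against 0.09 over all genes. None passed 2-fold (8.75% of genes). Acta1 (-0.81, interval -0.83 to -0.78) and Ankrd2 (-0.70, interval -1.39 to -0.04) were lower past 1.5-fold, which is 2 of 39 against 7.96%, and 0 were higher against 10.3%.

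In Rh2-30 mg/kg + Dox, 33 members were higher and 6 lower with a median of 0.29 against -0.01 over all genes, and this library was the highest of the 6 for 30 members (28 by total count and 25 by FPKM). Myom2 (log2 ratio 1.01, 2.01-fold) and, on the lower side, Ankrd2 (-1.08, interval -1.86 to -0.36) passed 2-fold, against 10.9% of genes. Myom2 lay at the threshold, and its ratio of 0.9989 on log2(FPKM + 1) was just under it. Myom2, Xirp1 (0.78) and Synpo2l (0.72) were higher past 1.5-fold, which is 3 of 39 against 8.81%. Acta1 (-0.70) and Ankrd2 were lower, against 13.9%. Actc1 had a ratio of 0.56. The atrial sum of this library (75.3 CPM) was near that of Control (45.7 CPM), and Nppa made up most of both (73.8 and 43.3 CPM). Myl7, Myl4 and Sln were each lower than in Control. The fibroblast sum was 975 against 1416 CPM. Of those genes, Col1a1, Col1a2, Col3a1 and Lum were lower than in Control. Dcn (473 against 432 CPM) and Pdgfra (96.4 against 87.1 CPM) were higher. The macrophage sum was 234 against 342 CPM. Whether these lower sums had a part in the higher member values was not tested.

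**Figure D4:**
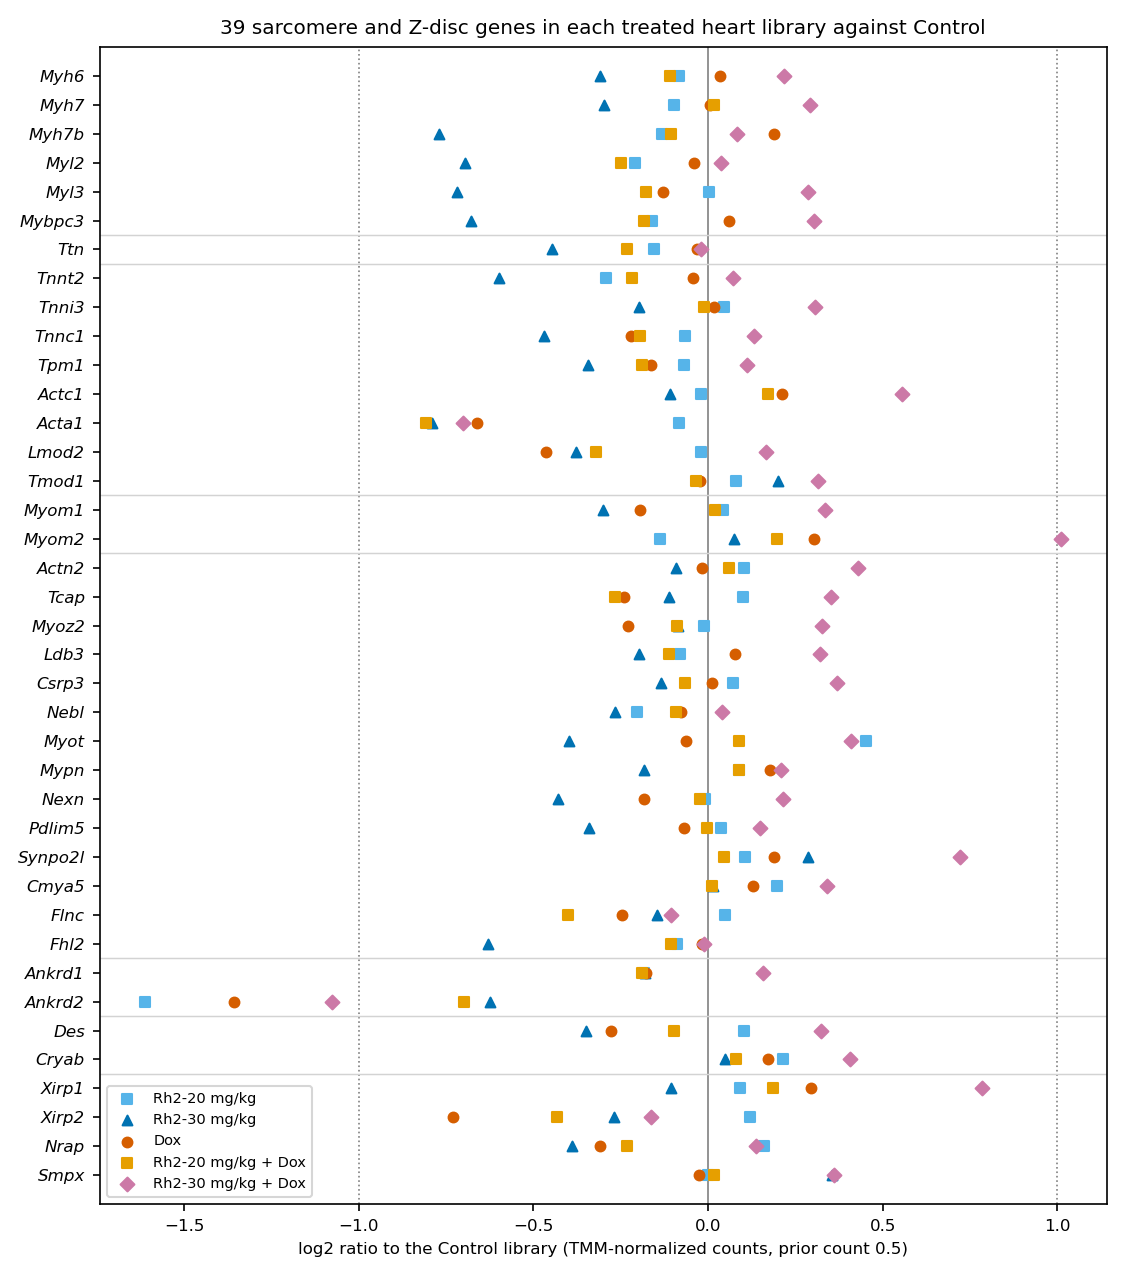
Log2 ratio of each treated library to Control for the 39 genes, grouped by role (TMM-normalized counts, prior count 0.5, 1 library per symbol, dotted lines at 2-fold). Rh2-30 mg/kg lies left of 0 for 33 genes (26 if scaled by total count) and Rh2-30 mg/kg + Dox right of 0 for 33 genes, Acta1 is to the left in 4 of the 5 libraries past 1.5-fold, and Ankrd2 is spread out by its low counts.

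The combinations were also compared with Dox alone, which both share. Adding Rh2 at 20 mg/kg left 14 members higher and 25 lower than in Dox, with a median of -0.03 against 0.0043 over all genes. By total count the split was 22 higher to 17 lower with a median of 0.04, against 0.07 over all genes. None was past 2-fold (6.51% of genes). Ankrd2 alone passed 1.5-fold upward (0.66, interval -0.19 to 1.57, against 6.93% of genes) and 0 passed it downward (7.4%). Xirp2, low in Dox, had a ratio of 0.30, and Myh7b one of -0.30. The atrial sums of these libraries were alike (379 and 403 CPM). Adding Rh2 at 30 mg/kg gave 37 members higher and 2 lower (33 and 6 on log2(FPKM + 1)), with a median of 0.33 against -0.02 over all genes. None passed 2-fold (10.1% of genes), and 4 passed 1.5-fold upward, Myom2 (0.71), Lmod2 (0.63), Des (0.60) and Tcap (0.59), which is 4 of 39 against 8.08%. By total count or on log2(FPKM + 1) the 2 that passed were Myom2 and Lmod2, against 7.46% and 1.98% of genes. None passed it downward (14.3%). Xirp2 had a ratio of 0.57, Acta1 one of -0.04 and Myh7b one of -0.11. Here the atrial sums differed, 379 CPM in Dox and 75.3 CPM in the combination, and so did red cell markers (6848 and 1051 CPM). Their part was not tested.

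Dox was also compared at each Rh2 dose, without a test. Against Rh2-20 mg/kg alone, 30 members were lower and 9 higher in Rh2-20 mg/kg + Dox (26 and 13 by total count), with a median of -0.04. None passed 2-fold (6.96% of genes). Acta1 (-0.73) passed 1.5-fold downward, against 6.62% of genes, and Ankrd2 (0.91, interval 0.05 to 1.87) upward, against 8.64%. The Xirp2 ratio was -0.55. Against Rh2-30 mg/kg alone, 38 members were above and 1 below in Rh2-30 mg/kg + Dox. Their median was 0.52 against -0.03 over all genes, of which 46.9% were higher. Myl3 (2.005-fold) was the single member past 2-fold, against 14.5% of genes. Past 1.5-fold upward there were 15 members, against 6.96% of genes, and 0 downward against 20.4%. After Myl3 these were Mybpc3 (0.98), Myom2 (0.94), Xirp1 (0.89), Myh7b (0.85), Myot (0.81), Myl2 (0.73), Des (0.67), Tnnt2 (0.67), Actc1 (0.66), Nexn (0.64), Myom1 (0.64), Fhl2 (0.62), Tnnc1 (0.60) and Myh7 (0.59). By total count the split was 33 to 6 with a median of 0.35, against -0.21 over all genes. Past 1.5-fold upward were then 6 members (Myh7b, Myl3, Mybpc3, Myom2, Myot and Xirp1), against 4.15% of genes. Ankrd2 passed it downward, against 26.3%. The Acta1 ratio was 0.09. The 2 libraries of the latter pair are those with the lowest and highest member levels. Their atrial sums were 1662 and 75.3 CPM.

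**Figure D5:**
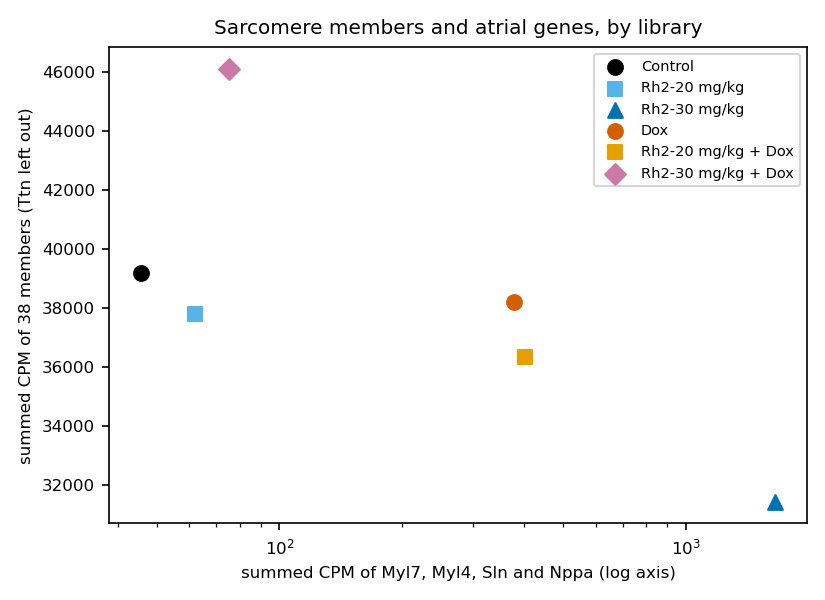
Summed CPM of 38 members (titin left out for its size) against summed CPM of 4 atrial genes (log axis), 1 point per library. Rh2-30 mg/kg is lowest in members (31418 CPM) and highest in atrial genes (1662 CPM), Rh2-30 mg/kg + Dox is highest in members (46122 CPM), and the other 4 libraries lie between 36345 and 39172 CPM.

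The difference made by Rh2 was tested with both doses pooled, 4 libraries with Rh2 against 2 without and Dox as a term. By edgeR's quasi-likelihood test 0 members passed the adjusted threshold (0% of genes) and 0 an unadjusted p under 0.05 (8.74% of genes), and DESeq2 and limma called 0 after adjustment. There were 21 members higher and 18 lower with Rh2, with a median of 0.03 (28 and 11 by limma on log2(FPKM + 1)). That direction turned with single libraries, from 32 higher and 7 lower without Control to 7 and 32 without Dox. The lowest unadjusted p was that of Myh7b (log2 difference -0.31 ± 0.19, edgeR adjusted p = 0.642). With the 20 mg/kg libraries only, 8 members were under an unadjusted 0.05 (13.6% of genes) and 1, titin, passed the adjusted threshold (0.125%), at -0.17 ± 0.02 (edgeR adjusted p = 0.0437). Of these 8, 6 were lower with Rh2 (Ttn, Tnnt2, Myl2, Mybpc3, Myh6 and Myh7b), and Myot (0.31) and Xirp2 (0.21) were higher. This fit had 4 libraries, 1 for each combination of Rh2 and Dox, so it left little to measure the spread by. The titin call rests on that fit alone. With the 30 mg/kg libraries only, 0 passed. Whether Rh2 altered the Dox difference was tested as an interaction, and 0 members passed either threshold of edgeR (0% and 2.71% of all genes) or that of DESeq2 or limma. The fitted interaction was positive for 37 and negative for 2 members, with a median of 0.29 against -0.01 over all genes, and it was positive for 31 by limma and for 27 without Rh2-30 mg/kg + Dox. In this fit the arm without Rh2 had 1 library with Dox and 1 without, and it was taken to vary like the arms with Rh2.

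A further 90 genes of the sarcomere, the costamere and their regulators were set beside the members, and 86 had enough counts. In the Dox contrast 39 were higher and 47 lower, 0 passed the adjusted threshold of edgeR's quasi-likelihood test, and 7 of the 86 were under an unadjusted 0.05, where 10.1% of all tested genes were. DESeq2's Wald test called 1 (Myl1) and limma 0. The lower ones included Myl1 (-0.98), an essential light chain of fast skeletal muscle, Mybpc2 (-0.69), the fast myosin-binding protein C, and the tropomyosins Tpm4 (-0.43) and Tpm3 (-0.32), whose products also serve non-muscle cells. Srf (-0.25) and the syncoilin gene Sync (-0.23) completed the lower group, and Lims2 (0.21), of focal adhesions, was the 1 higher. All 3 Dox libraries lay below the others for 7 of the 86, where 9.16% of all genes did so, and above them for 5, where 7.85% did. These counts are no higher than the shares over all genes. In the Rh2 contrast Speg, Tead1 and Klhl41 were under an unadjusted 0.05, and in the interaction Lmod1 and Synpo2, again with 0 past the adjusted threshold. Mybphl, an atrial myosin-binding protein gene, had 14 counts in Control, 125 at 20 mg/kg of Rh2, 8991 at 30 mg/kg of Rh2, 994 in Dox alone, 984 in Dox with 20 mg/kg, and 21 in Dox with 30 mg/kg, the high values falling in the libraries with high atrial markers.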

How the data were processed

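RNA of 6 mouse heart libraries was measured after SureSelect capture, with 1 library per condition. Per the labels and the study's methods, the authors demultiplexed reads with bcl2fastq 2.20.0, trimmed them with Trimmomatic, aligned them to mm10 with HISAT2 2.1.0 and estimated abundance with StringTie 2.1.3b on UCSC annotation. The authors deposited read counts per gene without normalization, FPKM values per length and depth, and TPM values, which were not used here. Libraries were grouped by their titles. Depth was 86164411 to 90621002 counts per library, and intervals cover counting error only.

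Counts were analysed with edgeR 4.0.16 in R 4.3.3 (TMM, a minimum mean of 10 counts per gene, quasi-likelihood F-test, two-sided, Benjamini-Hochberg adjustment over 18328 genes, threshold 0.05). The model was also run on simulated libraries with a fixed spread, which do not cover differences between unlike pools such as these. The tests were Dox against no Dox, Rh2 against no Rh2 with Dox as a term, and their interaction. They treat libraries of other Rh2 doses as replicates, so the spread includes any Rh2 difference. Single libraries were compared by log2 ratios with a prior count of 0.5 and exact conditional binomial 95% intervals. DESeq2 1.42.0 and limma 3.58.1 served as alternatives, with other scalings, filters, folds and left-out libraries. Figures used matplotlib 3.10.9 in Python 3.11.15. Sequences came from RefSeq (GRCm38.p6), and gene coordinates from RefSeq on GRCm38.p6, the mm10 assembly.

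The members and gene lists were chosen with earlier results of these data known. Values in all libraries were given for 12 filament genes, the 10 members with the largest ratio of highest to lowest CPM, and members with an unadjusted p under 0.05. Others are given by range, and those past 1.5-fold in a comparison of single libraries are named with it. Of the other sarcomere genes, those with an unadjusted p under 0.05 or past 2-fold could be named.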

Additional observations from a re-analysis of the deposited data

How the results depend on the processing

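No member passed the adjusted threshold in the Dox, Rh2 or interaction test under any alternative run, except 1 (titin) in the Rh2 test with the 20 mg/kg libraries only. That fit had 4 libraries, 1 for each combination of Rh2 and Dox, and left little to measure the spread by. The count of members at an unadjusted p under 0.05 in the Dox test was 3, and became 5 with DESeq2's Wald test, 1 with Rh2 dose as a block, which pairs each Dox library with its partner at the same dose, 8 without both 30 mg/kg libraries, 10 with the Myl7 level as a term (the last 2 chosen after seeing the data) and 1 to 3 with single libraries left out. In the Rh2 test it was 0, and became 8 with the 20 mg/kg libraries only, 8 with the Myl7 term and 0 to 1 with single libraries left out, as in the interaction (0 to 1), where leaving out Control or Dox could not be fitted. For counts at an unadjusted p, shares over all genes were taken only where given above. The others have no background to be read against. Past 2-fold against Control, log2(FPKM + 1) left 0 for Rh2 at 20 mg/kg, for Dox, and for Dox with Rh2 at 30 mg/kg. The pseudocount shrinks the ratios of the low gene Ankrd2, while Myom2, at 2.01-fold in the last of these, lost its call with its ratio barely moved. At 1.5-fold the counts against Control were 8 for Rh2 at 30 mg/kg, 3 for Dox, and 2 or 5 for Dox with Rh2 at 20 or 30 mg/kg, those against Dox alone were 1 and 4 for the latter pair, and those for Dox at 20 or 30 mg/kg of Rh2 were 2 and 15. Scalings at 1.5-fold were added after seeing the data. By total count the 8 became 2 (3.25% of all genes lower), the 4 became 2 (7.46% higher) and the 15 became 7 (4.15% higher, 26.3% lower). On log2(FPKM + 1) these became 2 (0.829% of all genes lower), 2 (1.98% higher) and 5 (1.24% higher). The counts for Dox with 20 mg/kg became 1 against Control (1.14% lower) and 0 against Dox (1.03% higher). Against its Rh2 partner the count became 1 (0.971% lower), and that for Rh2 at 20 mg/kg fell from 1 to 0 (0.529% lower). Why the counts moved was not tested otherwise. The directions of Actc1, Myom2, Xirp1, Acta1 and Xirp2 in the Dox test held in all 13 alternatives run. With 1 library per condition, depth did not limit the comparisons apart from Ankrd2, and the absence of replicate pools did.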
